A study of Homo sapiens with 12 samples.

Results

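CC chemokines are small secreted proteins that guide white blood cells along a gradient, and macrophages are one of their main sources. CCL2, CCL7 and CCL8 are the monocyte chemoattractant proteins: CCL2 acts mainly through the receptor CCR2, and CCL7 and CCL8 through CCR2 and further receptors. CCL3, CCL4, CCL5 and CCL23, of which CCL3, CCL5 and CCL23 are ligands of CCR1, lie in a second group of genes on the same chromosome. CCL20 attracts cells that carry CCR6, CCL22 cells that carry CCR4, and CCL24 (eotaxin-2) cells that carry CCR3. Many chemokines bind heparan sulphate, the sugar chain that syndecans carry on the cell surface, and interferon-γ (IFN-γ) is a strong activator of macrophage transcription, in part through the factor IRF1.

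The data hold 10 CC chemokine genes out of 58051 genes counted, chosen by their gene symbols. The choice was made with results of these data known, among them that CCL2 and CCL7 were far lower in knockout cells. All values are from THP-1, a human monocytic leukaemia line, in which SDC3, the gene of the surface proteoglycan syndecan-3, had been disrupted with CRISPR/Cas9 (SDC3-KO) or not (WT). Cells of all groups had first been made macrophage-like with the phorbol ester PMA (20 ng/ml, 24 h). There were 4 groups of 3 libraries: SDC3-KO with PMA and IFN-γ, WT with PMA and IFN-γ, SDC3-KO with PMA alone, and WT with PMA alone. The groups with PMA alone are called untreated here. The dose and duration of IFN-γ and the number of edited lines or clones are not given in the labels, so an effect of SDC3 loss cannot be told apart from a difference between lines.

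Messenger RNA was read at 23616738 to 29426415 counts per library, and 21529 to 23426 genes had a count. SDC3 stood at 237, 237 and 244 CPM (counts scaled to a library size adjusted by TMM, a trimmed mean of ratios between libraries) in IFN-γ-treated knockout libraries, against 578, 590 and 572 CPM in IFN-γ-treated wild-type libraries. Without IFN-γ it stood at 49.9, 48.2 and 43.9 CPM in knockout libraries and 196, 252 and 242 CPM in wild-type libraries, so transcript of the edited gene was lower but present. Of 13 monocyte and macrophage markers, 11 reached 1 CPM in every group. CD68, a defining macrophage marker, averaged 0.131 to 0.54 CPM and MARCO 0.027 to 1 CPM over the groups. Reads that overlap several genes could go uncounted. Such overlap was not looked for at CD68, so its level may be a lower limit. The sum of the 13 markers was 5852 to 6106 CPM in IFN-γ-treated knockout and 6143 to 6289 CPM in IFN-γ-treated wild-type libraries. It was 4661 to 4852 CPM in untreated knockout and 4886 to 5008 CPM in untreated wild-type libraries. Single markers differed more than the sum: MRC1, the mannose receptor, averaged 10.5 CPM in knockout and 37.8 CPM in wild-type cells with IFN-γ, and 7.98 CPM in knockout and 31.8 CPM in wild-type cells without it. The scavenger receptor CD163 averaged 16.9 CPM in knockout and 40.6 CPM in wild-type cells with IFN-γ, and 8.74 and 25.3 CPM in knockout and wild-type cells without it. Lysozyme (LYZ) averaged 230 CPM in knockout and 533 CPM in wild-type cells with IFN-γ, and 896 and 1295 CPM in knockout and wild-type cells without it. No list of T and NK, B, epithelial, fibroblast or endothelial markers summed to more than 20.2 CPM in any library. The fibroblast sum was 16.7 to 20.2 CPM in IFN-γ-treated knockout libraries and 8.26 to 10.1 CPM in IFN-γ-treated wild-type libraries, with DCN at 0 in both groups. The endothelial sum was 4.81 to 5.33 CPM in untreated knockout libraries and 13.1 to 14.7 CPM in untreated wild-type libraries. The part of these markers in the chemokine results was not tested.

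The sequences before the start sites of 3 members are shown because these members stand for the patterns below: CCL7 rose with IFN-γ and was low in knockout cells, CCL24 fell with IFN-γ and was high in knockout cells, and CCL23 belongs to the second cluster. Each run is 250 bases of the RefSeq promoter table (GRCh38.p14) that end just before an annotated start site, read 5′ to 3′ on the strand of the gene. No deposited exon overlaps any of the 3 windows. Capitals mark matches, on either strand, to the interferon-γ-activated (GAS) motif TTCNNNGAA, the AP-1 motif TGANTCA, the interferon-response motif GAAANNGAAA or the NF-κB (kappaB) motif. They lie at chr17:34269971-34270220 on the plus strand (CCL7), chr17:36017973-36018222 on the minus strand (CCL23) and chr7:75823373-75823622 on the minus strand (CCL24).
CCL7: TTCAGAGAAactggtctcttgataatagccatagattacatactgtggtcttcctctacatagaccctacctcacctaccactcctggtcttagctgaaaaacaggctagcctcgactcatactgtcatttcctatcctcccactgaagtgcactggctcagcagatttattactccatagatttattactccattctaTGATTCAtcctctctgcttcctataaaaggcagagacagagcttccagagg
CCL23: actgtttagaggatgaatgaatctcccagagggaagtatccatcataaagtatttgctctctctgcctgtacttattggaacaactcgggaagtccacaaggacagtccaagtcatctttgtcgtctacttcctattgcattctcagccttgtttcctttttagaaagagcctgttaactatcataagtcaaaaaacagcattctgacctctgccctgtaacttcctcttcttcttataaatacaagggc
CCL24: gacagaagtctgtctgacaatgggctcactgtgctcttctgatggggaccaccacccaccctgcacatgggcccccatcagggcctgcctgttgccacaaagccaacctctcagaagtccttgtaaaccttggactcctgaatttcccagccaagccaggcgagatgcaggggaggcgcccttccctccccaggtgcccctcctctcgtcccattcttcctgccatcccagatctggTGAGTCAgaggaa
The CCL7 window holds a GAS match, TTCAGAGAA, that begins 250 bases before the start site, and an AP-1 match, TGATTCA, that begins 51 bases before it. The CCL24 window holds the AP-1 match TGAGTCA 13 bases before the start site, and the CCL23 window holds no match to the 4 motifs. A second annotated start of CCL24 has a window with a GAS match (TTCAAGGAA) and an AP-1 match (TGACTCA).

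Promoter entries were found for 7 of the 10 members; CCL2, CCL4 and CCL5 had none. The window of CCL8 holds the GAS match TTCAAGGAA, which begins 91 bases before its start site. That window overlaps a deposited exon of CCL8 and lies wholly after the deposited start of the gene (chr17:34319036). The windows of CCL3 and CCL22 also overlap deposited exons of their own genes. Of the members outside chromosome 17, CCL20 has 1 kappaB match and CCL22 has 2 that overlap each other, and no member window holds the interferon-response motif. The sequence TATAAA, also searched on both strands, begins 30 bases before the start sites of CCL7 and CCL8, 29 before those of CCL3 (in 1 of its 3 windows) and CCL20, and 15 before that of CCL23. Among 35116 promoters of the same length, 6.57% hold the GAS motif, 6.57% the AP-1 motif, 3.02% the interferon-response motif, 9.96% the kappaB motif and 10.7% TATAAA. These matches describe letters in the windows and say nothing of binding in these cells.

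CCL2, CCL7 and CCL8 lie within 66.2 kb on the long arm of chromosome 17 (hg38), at chr17:34255218-34257203, chr17:34270221-34272242 and chr17:34319036-34321402. The second cluster starts 1550 kb farther on and covers 234 kb, with CCL5 at chr17:35871491-35880793, CCL23 at chr17:36013056-36017968, CCL3 at chr17:36088256-36090169 and CCL4 at chr17:36103590-36105621. CCL20 lies at chr2:227813842-227817564, CCL22 at chr16:57358772-57366190 and CCL24 at chr7:75811665-75823356. All spans are those of the whole gene in the deposited table. A test was possible for 9 of the 10 members. CCL4 was too low in every group. CCL7 passed the filter on low counts only through IFN-γ-treated wild-type cells, and CCL8 only through IFN-γ-treated cells of either genotype. CCL3 passed it only through untreated cells. No count over the members is therefore support for a pattern.

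The monocyte chemoattractants had the largest gains of the members under IFN-γ in wild-type cells, and with IFN-γ they were the members lowest in knockout relative to wild-type cells. CCL2, the archetypal monocyte attractant, stood at 3.16, 2.85 and 2.83 CPM in IFN-γ-treated knockout libraries and 58.5, 61.2 and 54.3 CPM in IFN-γ-treated wild-type libraries. In untreated cells it stood at 0.36, 0.638 and 0.194 CPM in knockout libraries and 7.62, 9.25 and 9.39 CPM in wild-type libraries. No pair of groups overlapped, and every IFN-γ-treated knockout library was below every untreated wild-type library.

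Relative to wild type, knockout cells held 5.08% as much CCL2 under IFN-γ (-4.30 on the log2 scale, SE 0.13) and 4.59% in untreated cells (-4.44, SE 0.27). The second value moved to -4.99 without knockout library 2 and to -4.10 without knockout library 3, since it rests on 10, 20 and 6 counts. These differences took part in choosing the genes and are given as a description. In bulk RNA, fewer cells that make the transcript and less transcript per cell cannot be told apart.

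IFN-γ raised CCL2 in both genotypes. In knockout cells it rose 7.3-fold (log2 2.87, SE 0.28, adjusted p = 2.9e-12), and in wild-type cells 6.6-fold (log2 2.72, SE 0.10, adjusted p = 8.2e-22). The difference of the responses was 0.15 on the log2 scale (95% interval -0.47 to 0.76, adjusted p = 0.8). The interval leaves room for a response up to 0.76 larger or 0.47 smaller in knockout cells. Any test of this difference shares libraries with the genotype differences known when the genes were chosen.

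CCL7 was almost absent outside wild-type cells. It had 4, 2 and 4 counts (0.162, 0.0814 and 0.153 CPM) in IFN-γ-treated knockout libraries and 214, 281 and 239 counts (8.58, 10.7 and 10.4 CPM) in IFN-γ-treated wild-type libraries. Without IFN-γ it had 0 counts in all 3 knockout libraries and 6, 24 and 12 counts (0.229, 0.74 and 0.403 CPM) in wild-type libraries. The pooled ratio with IFN-γ was 74.5-fold lower in knockout cells (95% counting interval 40.3 to 156), and without IFN-γ the knockout was lower by at least 14.3-fold, with 3 counts in the whole group taken as the limit for its 0.

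CCL7 rose in wild-type cells 20.8-fold (log2 4.38, SE 0.29, adjusted p = 1.6e-15). In knockout cells it rose at least 3.99-fold, on 10 counts against 0 (adjusted p = 0.002). CCL7 entered both tests only through its counts in IFN-γ-treated wild-type cells, so neither p-value is taken as support. It was not fitted with the knockout libraries alone. No fold can be given for the knockout, so the sizes of the responses are not compared. Intervals and floors cover counting error only, and counts of the 2 mates of a read pair are not independent: of the 35 member counts from 1 to 19, 80% were even, against 71.8% of all such counts.

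CCL8 had the largest fold response of the members in wild-type cells. It stood at 1.05, 0.977 and 0.994 CPM in IFN-γ-treated knockout libraries and 13.7, 14.3 and 13.4 CPM in IFN-γ-treated wild-type libraries, so the groups were far apart and each varied little. Untreated knockout libraries had no CCL8 count, which allows up to 0.0333 CPM over the group, and untreated wild-type libraries had 4, 0 and 0 counts. CCL8 therefore rose at least 30.3-fold in knockout cells (adjusted p = 7.0e-10) and 306-fold in wild-type cells (95% counting interval 119 to 1124, adjusted p = 2.4e-19). CCL8 entered these tests only through its counts in IFN-γ-treated cells, so neither p-value is taken as support. The size of the wild-type response rests on the 4 counts of untreated library 1. Without that library it was at least 287-fold, without untreated library 2 it was 194-fold and without untreated library 3 it was 203-fold. On the log2 scale the fitted response was 8.11, and it was 7.50 without untreated library 2 and 7.56 without untreated library 3; without untreated library 1 the fitted value (11.57) is set against no counts and gives no size. IFN-γ-treated knockout cells held 7.34% as much CCL8 as wild-type cells (log2 -3.77, SE 0.23).

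For the 3 monocyte chemoattractants the 95% interval of the log2 change between genotypes with IFN-γ was -7.22 to -5.12 for CCL7, -4.56 to -4.03 for CCL2 and -4.24 to -3.30 for CCL8. The intervals of CCL2 and CCL8 overlap, and that of CCL7 rests on 10 knockout counts. The same values took part in choosing the genes, so they are given as a description, as are the ratios between the genes. Ratios within a library do not depend on scaling between libraries: per exon length, CCL7 stood at 0.118, 0.0658 and 0.124 of the CCL2 level in IFN-γ-treated knockout libraries and at 0.337, 0.402 and 0.44 in IFN-γ-treated wild-type libraries. For CCL8 the ratio was 0.525, 0.54 and 0.553 in knockout libraries and 0.37, 0.367 and 0.388 in wild-type libraries. For neither ratio did the libraries of the 2 genotypes overlap.

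**Figure D1:**
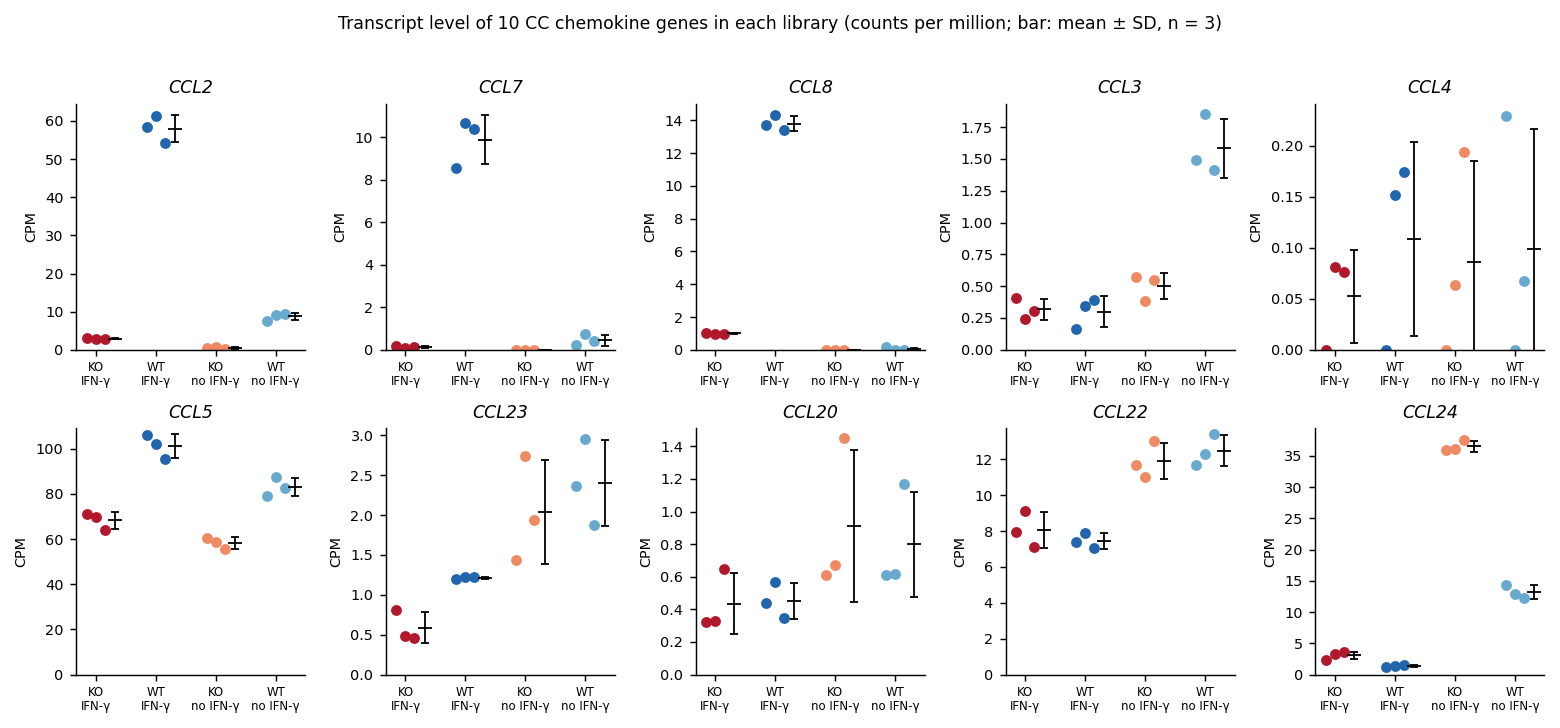
Level of each CC chemokine gene in CPM (vertical axes, from 0, a scale of its own for each gene) in the 4 groups; points are libraries and black bars the mean ± SD of 3. CCL2, CCL7 and CCL8 are high only in the IFN-γ-treated wild-type group (54.3 to 61.2 CPM for CCL2), whereas CCL24 is highest in untreated knockout cells.

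The second cluster did not share that pattern. CCL5 (RANTES), which attracts T cells and monocytes, was the most abundant member in counts: 71.3, 69.7 and 64.1 CPM in IFN-γ-treated knockout libraries, against 106, 102 and 95.5 CPM in IFN-γ-treated wild-type libraries. Untreated knockout libraries had 60.3, 58.9 and 55.5 CPM and untreated wild-type libraries 79.1, 87.3 and 82.7 CPM. The 4 groups did not overlap and stood in the same order as for CCL2, but over a far narrower range. The knockout level was 67.5% of wild type with IFN-γ (log2 -0.57, SE 0.05) and 70% without it (-0.51, SE 0.05).

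The IFN-γ response of CCL5 was small: 0.23 (SE 0.06, adjusted p = 5.1e-04) in knockout and 0.28 (SE 0.05, adjusted p = 2.7e-05) in wild-type cells, on the log2 scale. The responses differed by -0.05 (95% interval -0.21 to 0.10, adjusted p = 0.73). This rise depends on scaling between libraries. With library totals alone it became -0.06 (adjusted p = 0.3) in knockout and 0.03 (adjusted p = 0.6) in wild-type cells. That scaling also moved the median log2 change of all 17119 tested genes to -0.35 and -0.27, against -0.05 and -0.02 with TMM, so CCL5 stood above the median under both.

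CCL23, a chemoattractant of monocytes and resting T cells, fell with IFN-γ in both genotypes. It stood at 0.811, 0.489 and 0.459 CPM in IFN-γ-treated knockout libraries, against 1.44, 2.74 and 1.94 CPM in untreated knockout libraries (log2 -1.80, SE 0.32, adjusted p = 5.0e-06). In wild-type cells it stood at 1.2, 1.22 and 1.22 CPM with IFN-γ and 2.36, 2.96 and 1.88 CPM without it (-0.99, SE 0.27, adjusted p = 0.002). The difference of the responses, -0.82, had a 95% interval of -1.67 to 0.04 (adjusted p = 0.2). With IFN-γ the knockout libraries all lay below the wild-type ones (48.4% of wild type), and without IFN-γ the genotypes overlapped.

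CCL3 (MIP-1α), an attractant of monocytes and T cells, was low throughout and highest in untreated wild-type cells. With IFN-γ it stood at 0.405, 0.244 and 0.306 CPM in knockout and 0.16, 0.342 and 0.391 CPM in wild-type libraries, which overlap. Without IFN-γ it stood at 0.576, 0.383 and 0.549 CPM in knockout libraries and 1.49, 1.85 and 1.41 CPM in wild-type libraries, which do not overlap (31.8% of wild type). CCL3 fell with IFN-γ in wild-type cells (log2 -2.40, SE 0.42, adjusted p = 4.2e-06). In knockout cells the change was -0.65 (SE 0.45, adjusted p = 0.21). CCL3 entered the tests only through its counts in untreated cells. Its p-values, with that of the difference below, are therefore not taken as support.

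The response of CCL3 was 1.75 higher in knockout than in wild-type cells (95% interval 0.50 to 3.01, adjusted p = 0.049), at the edge of the threshold. It was no longer called without any one of the 3 knockout untreated or the 3 wild-type untreated libraries, without IFN-γ-treated knockout library 1 or 3 or IFN-γ-treated wild-type library 1 or 2 (adjusted p 0.057 to 0.14), nor when the near-identical copy CCL3L3 was added (difference 1.06, adjusted p = 0.24). Of the 1494 exon bases of CCL3, 1115 also lie in exons of CCL3-AS1 on the opposite strand, which had 0 counts. Counting used neither strand nor the option to count reads that overlap several genes, so such reads could go to neither gene, and the level of CCL3 may be a lower limit. CCL4 (MIP-1β) had 0 to 6 counts in every library and is too low to compare: 4 counts in IFN-γ-treated knockout, 8 in IFN-γ-treated wild-type, 8 in untreated knockout and 8 in untreated wild-type cells.

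The members on other chromosomes had lower mean levels with IFN-γ than without it in both genotypes, and all but CCL20 in wild-type cells passed the test. CCL24, a ligand of the eosinophil receptor CCR3, fell most. It stood at 2.39, 3.22 and 3.56 CPM in IFN-γ-treated knockout libraries, against 36, 36.1 and 37.6 CPM in untreated knockout libraries, an 11.9-fold fall (log2 -3.58, SE 0.12, adjusted p = 1.4e-23). In wild-type cells it stood at 1.2, 1.37 and 1.52 CPM with IFN-γ and 14.4, 12.9 and 12.2 CPM without it, a 9.64-fold fall (log2 -3.27, SE 0.16, adjusted p = 1.1e-19). The difference of the responses was -0.31 (95% interval -0.72 to 0.11, adjusted p = 0.37).

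CCL24 was the member that stood higher in the knockout under both conditions: 2.25-fold with IFN-γ (log2 1.17, SE 0.18) and 2.78-fold without it (1.48, SE 0.09). All 3 knockout libraries lay above all 3 wild-type libraries in each case. Relative to wild type, CCL24 and CCL2 thus stood on opposite sides in the same libraries.

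CCL22 (MDC), made by macrophages and dendritic cells, had close levels in the genotypes. It stood at 7.94, 9.12 and 7.11 CPM in IFN-γ-treated knockout and 7.37, 7.9 and 7.04 CPM in IFN-γ-treated wild-type libraries. Untreated libraries had 11.7, 11 and 13 CPM in the knockout and 11.7, 12.3 and 13.4 CPM in the wild type. CCL22 fell with IFN-γ in knockout (log2 -0.56, SE 0.11, adjusted p = 3.2e-05) and wild-type cells (-0.74, SE 0.11, adjusted p = 5.0e-07), with a difference of 0.18 (95% interval -0.13 to 0.49, adjusted p = 0.5). Between genotypes the 95% interval was -0.12 to 0.35 with IFN-γ and -0.27 to 0.14 without.

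CCL20 was low, at 8 to 17 counts in IFN-γ-treated knockout, 8 to 15 in IFN-γ-treated wild-type, 17 to 45 in untreated knockout and 16 to 35 in untreated wild-type libraries. It fell in knockout cells (log2 -1.06, SE 0.45, adjusted p = 0.037), although the libraries overlapped. This call was lost without IFN-γ-treated knockout library 1 (adjusted p = 0.12) or 2 (0.13) and without untreated knockout library 3 (-0.55, adjusted p = 0.36). In wild-type cells the change was -0.81 (SE 0.45, adjusted p = 0.13).

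In all, 4 members rose with IFN-γ in the knockout (CCL2, CCL7, CCL8, CCL5), 4 fell (CCL23, CCL20, CCL22, CCL24) and 1 did not pass the test (CCL3), where 61.1% of all tested genes were called, 29.2% higher and 31.8% lower. In wild-type cells the same 4 rose, CCL3, CCL23, CCL22 and CCL24 fell, and CCL20 did not pass, where 56.5% of tested genes were called, 28.6% higher and 27.9% lower. For the difference of the responses 1 member was called and 8 were not, where 15.5% of tested genes were called, 7.61% higher and 7.86% lower. Calls of members are thus read against responses in which most tested genes were called. The knockout call of CCL7 rests on 10 counts and on a filter passed through wild-type cells. The wild-type call of CCL7 and the calls of CCL8 and CCL3 rest on a filter passed through groups where these genes were higher. Members at opposite ends, CCL8 and CCL24, are told apart by the size and direction of the response rather than by the fact of a call.

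**Figure D2:**
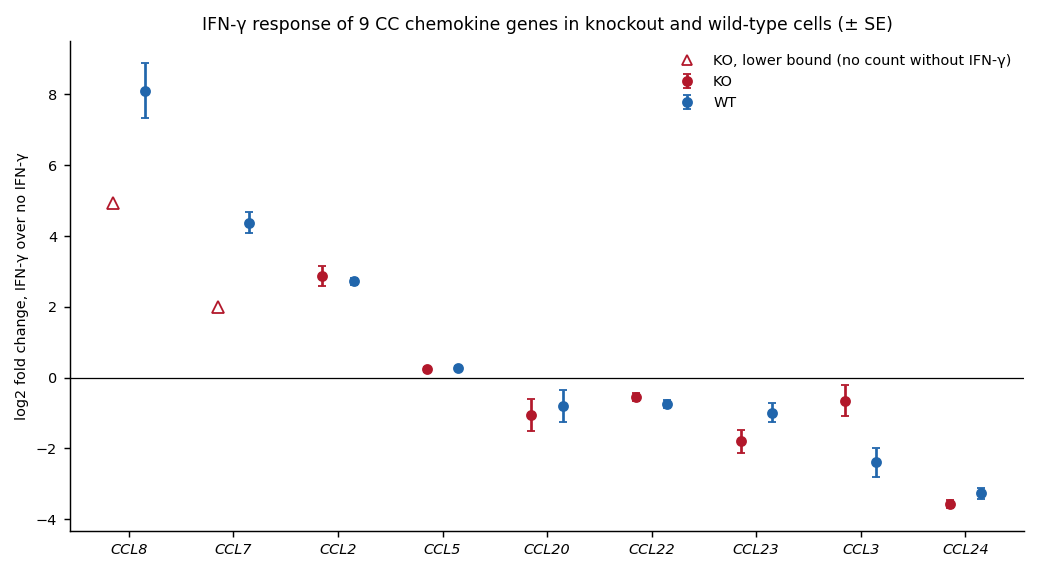
Log2 fold change of IFN-γ-treated over untreated cells (vertical axis) for the 9 tested CC chemokine genes, in knockout (red, left of each pair) and wild-type cells (blue), with the standard error; open triangles are lower bounds for genes with no count in untreated knockout cells. CCL8, CCL7 and CCL2 lie above 2 or at a bound of 3.99-fold or more, and CCL24 lies at -3.58 in knockout and -3.27 in wild-type cells.

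Levels of different genes were compared as RPKM, that is CPM per kilobase of exon. Exon length here is the union over all annotated transcripts, so the level of a gene with long rare exons is understated. In IFN-γ-treated knockout cells CCL5 (mean 45.2 RPKM) stood above CCL24 (4.95), CCL22 (2.75), CCL2 (1.48), CCL8 (0.8), CCL23 (0.794), CCL20 (0.323), CCL3 (0.213), CCL7 (0.153) and CCL4 (0.0259). CCL8 overlapped CCL23, CCL20 overlapped CCL3, and CCL3 overlapped CCL7. In IFN-γ-treated wild-type cells the order was CCL5 (66.9), CCL2 (29.2), CCL7 (11.4), CCL8 (10.9), CCL22 (2.54), CCL24 (2.21), CCL23 (1.64), CCL20 (0.337), CCL3 (0.199) and CCL4 (0.0535), with overlaps of CCL7 with CCL8, CCL22 with CCL24 and CCL20 with CCL3.

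In untreated knockout cells CCL24 (59.3 RPKM) led, above CCL5 (38.5), CCL22 (4.06), CCL23 (2.76) and CCL20 (0.679). Then came CCL3 (0.336) and CCL2 (0.2), which overlapped, and CCL4 (0.0422), with CCL7 and CCL8 at 0. In untreated wild-type cells CCL5 (54.9) led, above CCL24 (21.3), CCL2 (4.41), CCL22 (4.26), CCL23 (3.25), CCL3 (1.06), CCL20 (0.596), CCL7 (0.53), CCL4 (0.0485) and CCL8 (0.0403). There CCL2, CCL22 and CCL23 overlapped in turn, as did CCL20 with CCL7 and CCL4 with CCL8.

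Summed per length, the 2 clusters took very different shares of the members' total. CCL2, CCL7 and CCL8 held 4.51%, 3.98% and 4.4% of it in IFN-γ-treated knockout libraries, against 39.6%, 42.2% and 41.6% in IFN-γ-treated wild-type libraries. Without IFN-γ they held 0.172%, 0.303% and 0.0916% in knockout libraries and 4.76%, 5.86% and 5.86% in wild-type libraries. The share in IFN-γ-treated knockout libraries was thus close to, and below, that in untreated wild-type libraries. The sum itself was 2.44 ± 0.165 RPKM in IFN-γ-treated knockout, 51.6 ± 2.52 in IFN-γ-treated wild-type, 0.2 ± 0.113 in untreated knockout and 4.98 ± 0.673 in untreated wild-type cells (SD, n = 3 each).

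The CCL3-CCL4-CCL5-CCL23 cluster varied far less, at 46.3 ± 2.68, 68.8 ± 3.52, 41.6 ± 1.63 and 59.3 ± 3.33 RPKM in the same 4 groups. Nearly all of it was CCL5: without CCL5 the cluster summed to 1.03 ± 0.292, 1.9 ± 0.138, 3.14 ± 0.831 and 4.36 ± 0.866 RPKM. The ratio of the first to the second cluster was 0.0527 ± 0.00321 in IFN-γ-treated knockout and 0.751 ± 0.0469 in IFN-γ-treated wild-type cells. It was 0.00474 ± 0.00254 in untreated knockout and 0.0838 ± 0.00798 in untreated wild-type cells. CCL24 alone held 55.2% to 57.3% of the members' total in untreated knockout libraries and 22.2% to 26.4% in untreated wild-type libraries.

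The members' total differed between genotypes in opposite directions. With IFN-γ it was 56.7 ± 2.08 RPKM in knockout and 125 ± 4.73 RPKM in wild-type cells. Without IFN-γ it was 106 ± 0.577 RPKM in knockout and 90.5 ± 3.15 RPKM in wild-type cells. The errors are SDs of 3 libraries. CCL5 made up most of the total in IFN-γ-treated knockout libraries (78% to 81.4%) and CCL24 in untreated knockout libraries.

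**Figure D3:**
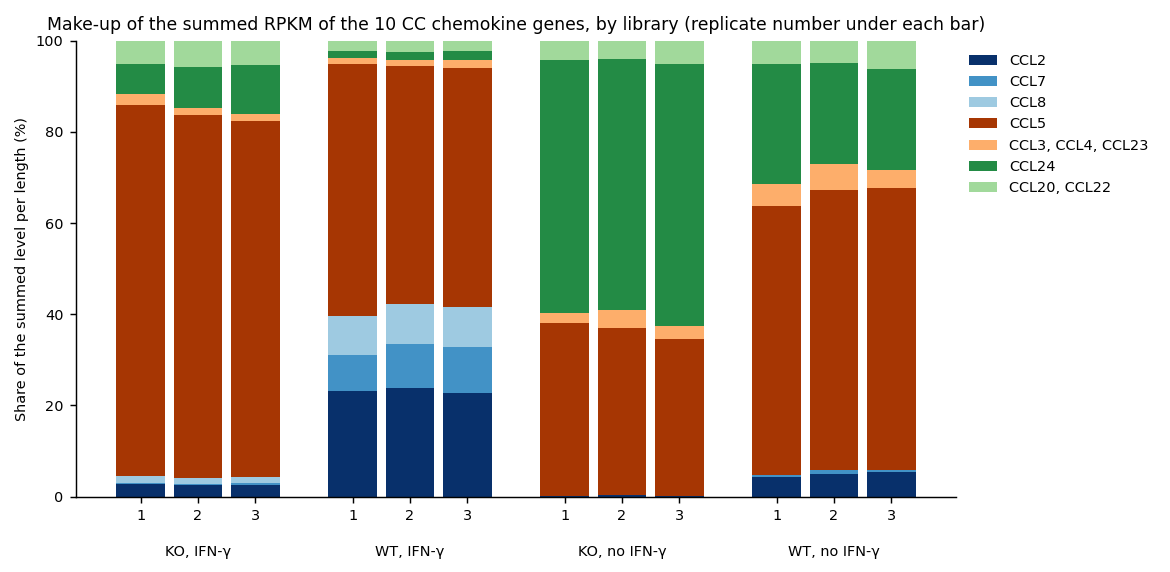
Share of the summed RPKM of the 10 CC chemokine genes (vertical axis, percent) taken by each gene or group of genes in every library, with replicate numbers below the bars. Blue shades are CCL2, CCL7 and CCL8 (39.6% to 42.2% in IFN-γ-treated wild-type and 3.98% to 4.51% in IFN-γ-treated knockout libraries), and dark green is CCL24 (55.2% to 57.3% in untreated knockout libraries).

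Of 18 other human CC chemokine genes looked for, 16 were in the table, 7 had no count and 1, CCL28, passed the filter. CCL28, a chemokine of mucosal epithelia, stood at 22.8 ± 0.898 CPM in IFN-γ-treated knockout and 11 ± 1.41 CPM in IFN-γ-treated wild-type cells (log2 1.05, SE 0.09, adjusted p = 2.4e-11). Without IFN-γ it stood at 27 ± 1.97 CPM in knockout and 15.9 ± 0.672 CPM in wild-type cells (0.76, SE 0.08, adjusted p = 3.4e-09). CCL28 was thus higher in the knockout under both conditions, as CCL24 was. It fell with IFN-γ in knockout (-0.25, SE 0.08, adjusted p = 0.01) and wild-type cells (-0.53, SE 0.09, adjusted p = 9.3e-06). The fall in knockout cells was not called without IFN-γ-treated library 2 (adjusted p = 0.072) or untreated library 2 (0.087).

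CCL13 (MCP-4), which lies just beyond CCL8, was too low for the test. It was chosen after its counts were seen, because it is the remaining monocyte chemoattractant gene. It had 4, 2 and 2 counts in IFN-γ-treated knockout and 8, 10 and 5 counts in IFN-γ-treated wild-type libraries, and 0 in all 6 untreated libraries. The pooled ratio with IFN-γ was 2.92-fold lower in knockout cells (95% counting interval 1.26 to 7.55). Mates of a read pair were counted singly and are not independent, so this interval is too narrow. No difference of CCL13 between genotypes is read from it.

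To see whether low knockout levels were shared by the wider chromosome, 10 tested genes on each side of each cluster were compared between genotypes. No tested gene other than CC chemokines lay within either cluster. The nearest neighbours of the first cluster lay at -215 kb (TLK2P1, before it) and 606 kb (CCT6B, after it). Its neighbours spanned 2113 kb before it and 1052 kb after it. Those nearest the second cluster lay at -6.88 kb (TAF15) and 381 kb (ZNHIT3). Whether the stretch closer to the first cluster shared the low levels was not tested. Of the 20 neighbours of CCL2, CCL7 and CCL8, 2 were higher and 5 lower in knockout cells with IFN-γ (median log2 -0.16, against -0.01 over all genes), where 47.2% of tested genes were called, 22.9% higher and 24.3% lower. Of the 20 neighbours of the second cluster, 2 were higher and 3 lower (median -0.05). Without IFN-γ, 4 and 6 of the first 20 were higher and lower (median -0.09), as were 3 and 4 of the second 20 (median -0.01), where 50.1% of tested genes were called, 25.4% higher and 24.8% lower.

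Few of these neighbours differed by a log2 change of 1 or more. The gene ENSG00000267364, which has no symbol here and starts 992 kb beyond CCL8 among the SLFN genes, stood at 0.413 ± 0.137 CPM in IFN-γ-treated knockout and 8.26 ± 1.4 CPM in IFN-γ-treated wild-type cells (-4.31, SE 0.31, adjusted p = 1.3e-15). Without IFN-γ it stood at 0.414 ± 0.212 CPM in knockout and 7.02 ± 0.809 CPM in wild-type cells (-4.05, SE 0.29, adjusted p = 1.9e-15). MYO1D, a myosin, was lower in untreated knockout cells at very low level (0.067 ± 0.0647 against 0.421 ± 0.0806 CPM in wild type, log2 -2.57, SE 0.85, adjusted p = 0.004). The change was -1.99 without untreated knockout library 2 and -3.46 without untreated knockout library 3. Near the second cluster SLFN12L (1.42, SE 0.20, adjusted p = 3.2e-07) and the unnamed ENSG00000267554 (1.30, SE 0.50, adjusted p = 0.026) were higher in untreated knockout cells.

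IFN-γ raised 11 and lowered 4 of the neighbours of the first cluster in knockout cells, and raised 10 and lowered 4 in wild-type cells. For the second cluster the counts were 10 and 3 in knockout and 10 and 2 in wild-type cells. Of all tested genes 29.2% rose and 31.8% fell in knockout cells, and 28.6% rose and 27.9% fell in wild-type cells. The interferon-induced SLFN5 rose by 2.36 (SE 0.05, adjusted p = 4.7e-28) in knockout and 1.78 (SE 0.05, adjusted p = 4.6e-25) in wild-type cells. Its relative SLFN11 rose by 1.02 (SE 0.05, adjusted p = 1.8e-18) in knockout and 0.86 (SE 0.05, adjusted p = 7.4e-17) in wild-type cells. SLFN12L rose by 0.76 (SE 0.16, adjusted p = 1.6e-04) in knockout and 2.10 (SE 0.20, adjusted p = 2.8e-11) in wild-type cells. The SLFN12L response was smaller in knockout cells (difference -1.34, SE 0.26, adjusted p = 2.3e-04). The dehydrogenase/reductase gene DHRS11 fell by 1.71 (SE 0.35, adjusted p = 5.3e-05) in knockout and 1.76 (SE 0.34, adjusted p = 2.0e-05) in wild-type cells.

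**Figure D4:**
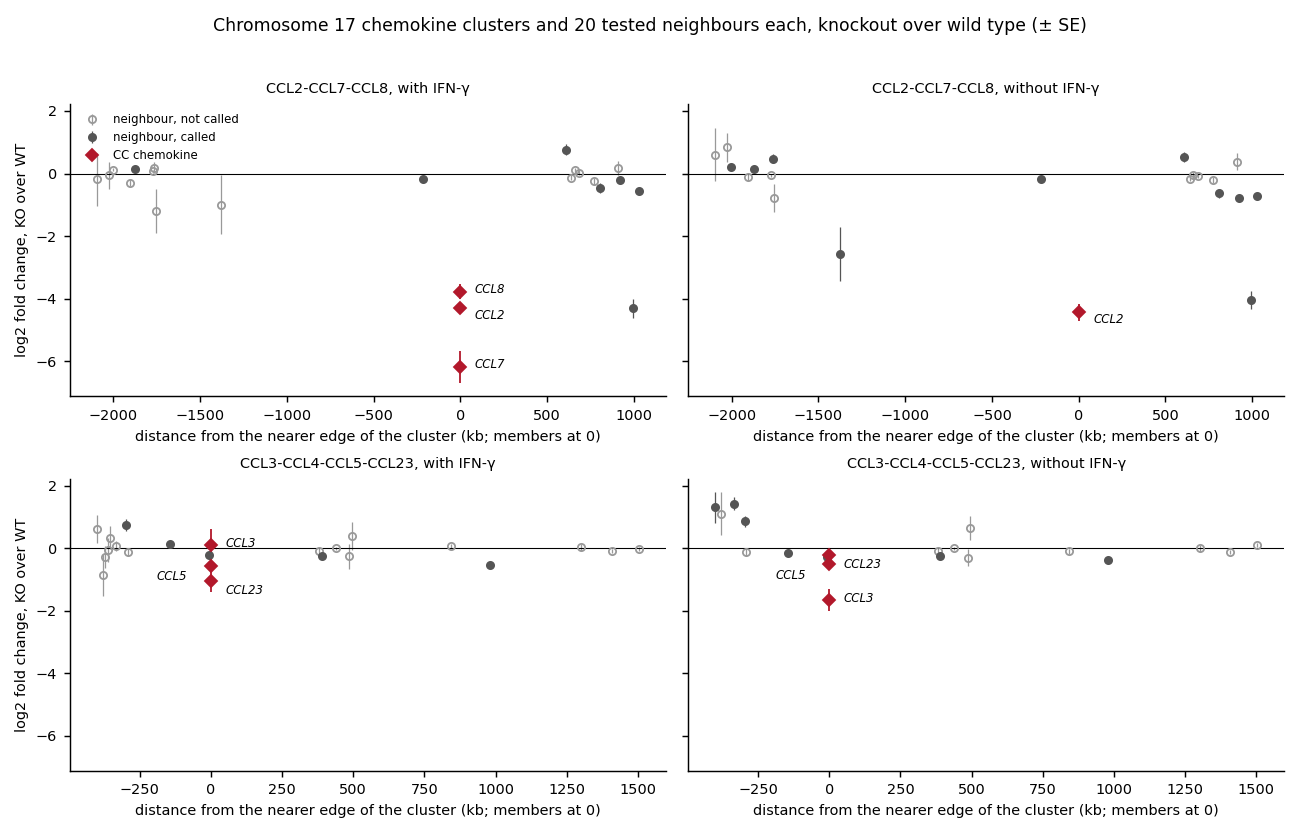
Log2 fold change of knockout over wild-type cells (vertical axis, ± SE) of the CC chemokine genes (red diamonds, drawn at 0) and of up to 20 tested neighbours (circles, filled where called) by distance from the nearer edge of each cluster in kb. Genes without a count in a compared group are not drawn. CCL2, CCL7 and CCL8 lie at -4.30, -6.17 and -3.77 with IFN-γ, and the only called neighbour beyond 1 in either direction with IFN-γ lies at -4.31.

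Receptors for these chemokines were also present in the cells. Of 14 CC chemokine receptor genes listed, 8 passed the filter, and 4 are described here. CCR2, the receptor of CCL2, was higher in knockout cells: 130, 136 and 130 CPM with IFN-γ, against 91.4, 90.6 and 95.6 CPM in wild-type libraries (log2 0.52, SE 0.05, adjusted p = 1.2e-10). Without IFN-γ it stood at 154, 150 and 160 CPM in knockout and 93.5, 84.6 and 82.9 CPM in wild-type libraries (0.83, SE 0.05, adjusted p = 1.2e-15). The receptor was thus higher where its ligand CCL2 was lower, without overlap of the libraries.

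CCR1, a receptor of CCL3, CCL5, CCL7 and CCL23, was lower in knockout cells: 290 ± 3.12 against 365 ± 6.31 CPM in wild type with IFN-γ (log2 -0.33, SE 0.04, adjusted p = 7.1e-09). CCR3, the receptor of CCL24, was higher: 4.27 ± 0.649 against 1.96 ± 0.542 CPM in wild type with IFN-γ (1.12, SE 0.19, adjusted p = 1.0e-05). CCRL2, an atypical receptor that binds chemerin and does not signal by the usual route, was lower in untreated knockout cells (18.7 ± 0.137 against 39.6 ± 3.76 CPM in wild type; -1.08, SE 0.07, adjusted p = 1.1e-14). Without IFN-γ, CCR1 (-0.35, SE 0.04, adjusted p = 3.5e-09) and CCR3 (1.39, SE 0.18, adjusted p = 5.5e-08) differed the same way.

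IFN-γ raised CCR1 in knockout (log2 1.07, SE 0.04, adjusted p = 6.9e-22) and wild-type cells (1.05, SE 0.04, adjusted p = 1.1e-21). CCR2 fell in knockout cells (-0.22, SE 0.05, adjusted p = 1.2e-04) and changed by 0.09 (SE 0.05, adjusted p = 0.12; -0.16 and 0.0041 with library totals alone) in wild-type cells, a difference of -0.31 (SE 0.07, adjusted p = 0.0011). In all, 3 of the 8 tested receptors rose and 3 fell in knockout cells, where 61.1% of all tested genes were called, and 4 rose and 1 fell in wild-type cells, where 56.5% were called. Between genotypes 2 were higher and 4 lower with IFN-γ, where 47.2% of tested genes were called, and 2 higher and 3 lower without it, where 50.1% were called. With 8 receptors, nothing particular to them is read from these counts.

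**Figure D5:**
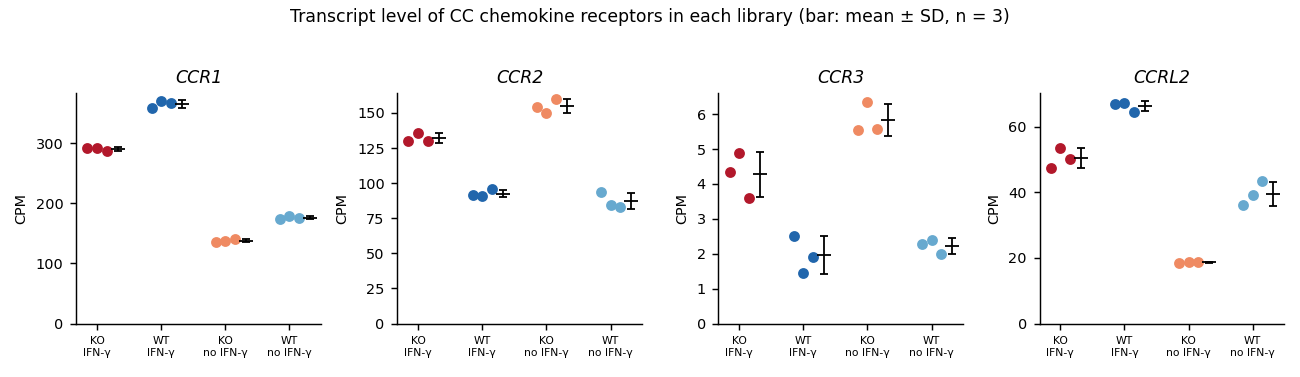
Level of 4 CC chemokine receptors in CPM (vertical axes, from 0, a scale of its own for each gene) by group; points are libraries and black bars the mean ± SD of 3. CCR2 and CCR3 stand higher in knockout than in wild-type cells (130 to 136 against 90.6 to 95.6 CPM for CCR2 with IFN-γ), and CCR1 and CCRL2 stand lower.

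Of 37 listed regulators of chemokine transcription and messenger decay, 25 rose and 3 fell with IFN-γ in knockout cells, and 24 rose and 8 fell in wild-type cells. Of all tested genes 29.2% rose and 31.8% fell in knockout cells, and 28.6% rose and 27.9% fell in wild-type cells. IRF1, a transcription factor of the IFN-γ response, rose by 4.35 in knockout cells (SE 0.04, adjusted p = 8.5e-38) and by 4.83 in wild-type cells (SE 0.04, adjusted p = 1.8e-38), on the log2 scale. BCL3, an atypical IκB protein, rose by 2.11 (SE 0.08, adjusted p = 8.4e-21) in knockout cells, and STAT3 by 1.70 (SE 0.04, adjusted p = 1.3e-27) in wild-type cells. Each is given where it was among the 3 largest changes. Knockout minus wild-type, the response differed by 0.51 (SE 0.12) for BCL3 and 0.00 (SE 0.05) for STAT3. The responses of 11 regulators were higher in knockout cells and those of 9 lower, where 7.61% of all tested genes were called higher and 7.86% lower. The largest such differences were those of the stress factor ATF3 (2.06, SE 0.07, adjusted p = 1.2e-19), the NF-κB inhibitor NFKBIA (1.23, SE 0.11, adjusted p = 3.3e-10) and the immediate-early factor EGR1 (1.03, SE 0.27, adjusted p = 0.0071).

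Between genotypes 15 regulators were higher and 13 lower with IFN-γ, and 14 higher and 13 lower without it. Of all tested genes 22.9% were higher and 24.3% lower with IFN-γ, and 25.4% higher and 24.8% lower without it. MAF, a macrophage transcription factor, stood at 2.95 ± 0.798 CPM in knockout and 17.5 ± 1.74 CPM in wild-type cells with IFN-γ (log2 -2.57, SE 0.15, adjusted p = 3.6e-16). Without IFN-γ it stood at 3.16 ± 0.225 CPM in knockout and 17.6 ± 2.12 CPM in wild-type cells (-2.48, SE 0.14, adjusted p = 1.7e-16). RELB (1.27, SE 0.06, adjusted p = 1.1e-17) and NFKBIA (0.88, SE 0.08, adjusted p = 4.4e-11) were higher in IFN-γ-treated knockout cells. EGR1 (-2.13, SE 0.17, adjusted p = 3.3e-12) and ATF3 (-1.71, SE 0.05, adjusted p = 2.2e-22) were lower in untreated knockout cells.

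The genes whose pattern over the 12 libraries was most like that of CCL2 were TBC1D4 and TBC1D9 (r = 0.992 each), ARHGAP5 (0.991), STAC3 (0.990) and ATP5F1A (0.988), by Pearson correlation of log2(CPM + 1) among 11417 genes. For CCL3 they were FAM131B (0.976), CSTB (0.974), TMEM43 (0.967), DUSP2 (0.966) and VKORC1L1 (0.962). For CCL22 they were TEX10 (0.979), MMS19 (0.975), DSN1 (0.970), HMCES (0.969) and ZFHX3-AS1 (0.968). The libraries fall into 4 groups that share treatment and genotype, so these values describe likeness of group levels. ARHGAP5, for example, averaged 1.08 CPM in IFN-γ-treated knockout, 10.8 in IFN-γ-treated wild-type, 0.373 in untreated knockout and 3.06 in untreated wild-type cells. ATP5F1A differed far less, at 606, 844, 525 and 699 CPM in the same 4 groups. A high r thus says nothing of the size of the difference between genotypes.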

How the data were processed

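Total RNA (1 µg per library) was used for stranded poly(A) libraries, per the labels' protocols. The authors deposited read counts per gene for 58051 genes on hg38, made with featureCounts 2.0.3 from primary alignments with mates counted singly and no strand option, per the file headers. The sources used here do not give the annotation release or the aligner of the counted reads. The submitters' processing notes also name fastp 0.23.2, STAR 2.7.10b, BWA, Picard 2.27.5 and MultiQC 1.13. Symbols were found for 56948 gene IDs.

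From the deposited counts, CPM and RPKM were computed on TMM-scaled library sizes. Genes were filtered with filterByExpr, which kept 17119, and tested with edgeR 4.0.16 (R 4.3.3), quasi-likelihood, with the 12 libraries fitted together and the 4 groups as factor, two-sided; Benjamini-Hochberg adjusted p-values under 0.05 were called. Standard errors are from the same fit. The code was tested on simulated data. Replicates were numbered samples, with nothing to say that they were separate cultures, so the p-values rest on a spread between samples that may be technical. DESeq2 1.42.0, other scalings, no filter, fewer groups, a replicate block, single libraries left out and summed copies were alternatives.

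The members and lists were chosen with earlier results of these data known. Named were all members, SDC3, other CC chemokines that passed the filter, receptors at 1 CPM or more in a group, up to 3 called regulators per comparison (5 CPM or more), neighbours called with a log2 change of 1 or more, and the 5 genes most like CCL2, CCL3 and CCL22. CCL13 and CCL3L3 were named after their values were seen. The neighbours TAF5LP1, TOMM20P2, UBL5P2, CDK5R1 and NLE1 and 3 without symbols also met the rule for an IFN-γ response and are not described further. Some genes that the rule also names are not reported here.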

Additional observations from a re-analysis of the deposited data

Results flagged for a closer look

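The IFN-γ response differed between genotypes by a test of the difference itself for 12 of the 30 tested genes whose difference was looked up. Of all tested genes 15.5% were called for it. The 30 include ATF3, NFKBIA and EGR1, named above for the size of this difference. Not every gene with levels in the text was looked up. The count is therefore no result about these genes as a set. Values are knockout minus wild-type response on the log2 scale, with p-values from edgeR adjusted over all tested genes. For CCL3 the difference was 1.75 (adjusted p = 0.049), on 24 counts with IFN-γ and 45 without in knockout cells and 22 with and 141 without in wild-type cells. CCL3 passed the filter only through untreated cells. For the edited gene SDC3 the difference was 1.00 (adjusted p = 9.9e-11). For the receptor CCR2 it was -0.31 (adjusted p = 0.0011), and for CCRL2 it was 0.69 (adjusted p = 1.2e-06). Among the regulators it was 2.06 for ATF3 (adjusted p = 1.2e-19), 1.23 for NFKBIA (adjusted p = 3.3e-10), 1.03 for EGR1 (adjusted p = 0.0071), 0.60 for RELB (adjusted p = 8.3e-06), 0.51 for BCL3 (adjusted p = 0.0028) and -0.47 for IRF1 (adjusted p = 7.2e-08). The value for EGR1 fell short of the threshold without IFN-γ-treated knockout library 1 (0.75, adjusted p = 0.078). Of the neighbours, SLFN5 beyond the first cluster had a difference of 0.58 (adjusted p = 1.4e-07) and SLFN12L near the second one of -1.34 (adjusted p = 2.3e-04).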

How the results depend on the processing

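Tests of the 9 members kept the side of the threshold and, where called, the direction in 375 of 395 recomputed values. Some values that were not called changed sign. The CCL2 difference of responses, for example, was 0.15 in the main fit and -0.19 without untreated knockout library 3. CCL7 has no value for the knockout response when only the compared groups were fitted. Members called there numbered 7, against 8 in the main fit. With library totals alone the CCL5 response was -0.06 in knockout (adjusted p = 0.3) and the CCR2 response in wild-type cells -0.16 (adjusted p = 0.0041); that scaling called 2787 genes higher and 9141 lower for the knockout response (5005 and 5451 with TMM), 2767 and 8260 for the wild-type response (4896 and 4770), 1000 and 1855 for the difference (1302 and 1345) and 2887 and 5213 for the genotypes with IFN-γ (3919 and 4153). Members called for the difference of responses numbered 0 with library totals alone (CCL3 adjusted p = 0.052), 0 without the filter (0.064), 0 with copies summed (0.24) and 0 to 1 with single libraries left out; with DESeq2 CCL3 had adjusted p = 0.046. The replicate numbers gave no sign of pairing: 18 same-numbered pairs had r of -0.205 to 0.285, 3 over 0.1. The 36 differently numbered pairs had r of -0.233 to 0.261, and 4 of 12 libraries correlated best with their own number. With 3 libraries per group, these values cannot exclude pairing. With the replicate block the members called for the difference numbered 0 (CCL3 adjusted p = 0.065). Low counts limit most the values of CCL4, CCL3 and CCL20, and of CCL7 and CCL8 outside IFN-γ-treated wild-type cells.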
